A study of Mus musculus with 8 samples.

Results

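The genes described here are 6 secreted products of alternatively activated (M2) macrophages: Retnla, Chil3, Chil4, Ear2, Rnase2a and Igf1. They are 6 of the 14485 genes in the deposited tables and were chosen by symbol. The tables identify them as ENSMUSG00000061100 (Retnla), ENSMUSG00000040809 (Chil3), ENSMUSG00000063779 (Chil4), ENSMUSG00000072596 (Ear2), ENSMUSG00000047222 (Rnase2a) and ENSMUSG00000020053 (Igf1). All 6 were analysed with IL-4, and 3 of them (Retnla, Chil3 and Igf1) with PBS. The PBS levels of Chil4, Ear2 and Rnase2a are not analysed here.

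Alternative activation is the state that interleukin 4 (IL-4) brings about in macrophages, through the IL-4 receptor, JAK kinases and the transcription factor STAT6. Retnla encodes RELMα (Fizz1), a small secreted protein of the resistin family, and Chil3 encodes Ym1, a chitinase-like lectin that has lost the enzyme activity of true chitinases. Both are standard marks of this state in mice. Chil4 (Ym2) is a close copy of Chil3. Ear2 and Rnase2a are eosinophil-associated ribonucleases of the RNase A family, and Igf1 encodes insulin-like growth factor 1, a growth factor that macrophages release during tissue repair.

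Macrophages were grown for 7 days from the marrow of 12-week-old female mice, 2 with NF-κB-inducing kinase knocked out (NIK KO) and 2 wild type (WT). NIK acts at the head of the noncanonical NF-κB pathway. The medium held 30% supernatant of L929 cells, a fibroblast line that supplies the growth factor M-CSF, and 5% after replating. Cells of each mouse then received 20 ng/mL IL-4 or PBS for 6 hours, which gave 4 groups of 2 RNA libraries: NIK KO with IL-4, WT with IL-4, NIK KO with PBS and WT with PBS. No source used here gives which part of the NIK gene was removed, or in which cells. The authors deposited 1 table of per-gene results for each treatment, comparing NIK KO with WT over 4 libraries, so no value of a single mouse can be shown and the depth per library is unknown.

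Map3k14, the gene of NIK, went against the label: in the authors' deposited tables its level stood above WT in libraries labelled NIK KO, by 0.99 ± 0.22 on the log2 scale with IL-4 (832 against 418 mean normalized counts, DESeq2 adjusted p = 0.00782) and by 1.09 ± 0.28 with PBS (902 against 425, adjusted p = 0.176). A reversed direction in the tables would exchange NIK KO and WT in every value given here. The direction is stated by the name of the IL-4 table alone and was applied to both. All 12 macrophage markers checked were measured in both tables, with base means in the IL-4 table from 344144 (Lyz2) down to 288 (Mertk). Being measured does not by itself settle the cell type, since 10 of 10 fibroblast markers were also measured with IL-4. In bulk RNA, fewer cells of a type and less RNA per cell cannot be told apart.

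The stretches before the start sites of Retnla, Chil3 and Chil4 are shown because Retnla and Chil3 had the highest ratios of IL-4 to PBS level among the members measured in both tables, and Chil4 is the close copy of Chil3. Each line is 1 RefSeq promoter window of build GRCm38.p6, from 250 bases before to 50 bases after the annotated start, on the gene's own strand. Capitals mark matches to motifs searched on both strands. The form named STAT6 here is TTC and GAA with any 4 bases between them, and the other STAT form has any 3 bases there. These names do not limit which STAT factor can bind a match. The C/EBP form searched is TTGC and AA with any 2 bases between them, and the TATA box is TATAAA.
Retnla, chr16:48842359-48842658, plus strand: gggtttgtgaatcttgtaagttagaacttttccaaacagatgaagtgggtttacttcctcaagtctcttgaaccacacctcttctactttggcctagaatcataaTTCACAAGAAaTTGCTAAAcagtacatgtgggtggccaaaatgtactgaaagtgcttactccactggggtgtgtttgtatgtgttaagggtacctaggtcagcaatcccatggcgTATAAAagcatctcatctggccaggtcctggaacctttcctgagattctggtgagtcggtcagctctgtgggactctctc
Chil3, chr3:106167515-106167814, minus strand: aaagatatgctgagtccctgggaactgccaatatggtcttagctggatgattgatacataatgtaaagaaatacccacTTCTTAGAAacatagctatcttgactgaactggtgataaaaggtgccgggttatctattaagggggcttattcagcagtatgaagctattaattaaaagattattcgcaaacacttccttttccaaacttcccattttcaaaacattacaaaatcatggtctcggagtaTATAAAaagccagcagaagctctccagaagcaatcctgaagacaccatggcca
Chil4, chr3:106219430-106219729, minus strand: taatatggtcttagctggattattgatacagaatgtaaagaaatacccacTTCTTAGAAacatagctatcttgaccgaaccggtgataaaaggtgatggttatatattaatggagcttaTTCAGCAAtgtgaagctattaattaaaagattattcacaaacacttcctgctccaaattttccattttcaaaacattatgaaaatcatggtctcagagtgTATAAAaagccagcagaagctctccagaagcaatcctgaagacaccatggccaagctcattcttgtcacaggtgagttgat

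The Retnla window held the STAT6 form at bases 106 to 115 (TTCACAAGAA), a C/EBP match at bases 117 to 124 with 1 base between them, and a TATAAA match at bases 221 to 226. The Chil3 and Chil4 windows held no STAT6 form, but each held the same 9 bases of the other STAT form (TTCTTAGAA) and a TATAAA match. The Chil3 match to TATAAA begins at position -3 from the annotated start, against -31 in Chil4 and -30 in Retnla. From this match to the end of the Chil3 window, the Chil3 and Chil4 windows hold the same bases. The other STAT form is shifted likewise, at -172 in Chil3 and -200 in Chil4. The annotated start of Chil3 thus lies further upstream in the shared stretch. Chil4 also held a C/EBP match on the opposite strand, at bases 120 to 127. No 2 matches overlapped in these windows. The Ear2 and Rnase2a windows (chromosome 14) held a C/EBP match each and the Igf1 window (chromosome 10) none of these. The κB form, GGG and TTTCC with any 2 bases between them, was found in none of the 6. Of all 32851 windows in the RefSeq table, 6.95% held the STAT6 form, 8.30% the other STAT form, 10.8% the C/EBP form, 13.6% the TATA box and 1.63% the κB form. A match describes letters only, and the Igf1 gene has other start sites that this window does not cover.

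The windows of Chil3 and Chil4 were 92.6% identical over 271 aligned bases, and their longest transcripts 94.4% identical over 1538 bases. This bears on the counts. Of the 31-base words in the longest Chil3 transcript, 44.8% also occur in another gene of the GENCODE M21 reference (31.1% in Chil4), and of those in Chil4 35.4% (31.1% in Chil3). Ear2 shared 60.5%, mostly with Ear1 and Ear10, so its count is uncertain. Rnase2a shared 6.36%, Retnla 5.45% (with Retnlg) and Igf1 0.199%.

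With IL-4 all 6 genes were measured. Mean normalized counts were recovered from the deposited base mean and fold change. Igf1 stood at 19705 in NIK KO and 19758 in WT. Retnla stood at 1274 in NIK KO and 1385 in WT, and Chil3 at 1699 in NIK KO and 2293 in WT. Rnase2a was at 181 in NIK KO and 207 in WT, Chil4 at 102 in NIK KO and 155 in WT, and Ear2 at 19.8 in NIK KO and 14.2 in WT.

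Levels of different genes can be set beside each other only per length. Per kilobase of longest transcript, the order with IL-4 was Igf1, Retnla, Chil3, Rnase2a, Chil4, Ear2 in both genotypes. Igf1 had 2794 normalized counts per kilobase in NIK KO and 2802 in WT, and Retnla 2127 in NIK KO and 2311 in WT. That gap between their levels, 0.39 in NIK KO and 0.28 in WT on the log2 scale, was smaller than its approximate standard error of 0.58. Chil3 followed with 1104 per kilobase in NIK KO and 1490 in WT, again less than 2 approximate standard errors under Retnla (0.95 and 0.63, each ± 0.58). The step down to Rnase2a, at 262 per kilobase in NIK KO and 300 in WT, was 2.07 in NIK KO and 2.31 in WT on the log2 scale, with an approximate standard error of 0.27. Chil4 came next, at 66.3 in NIK KO and 101 in WT, lower than Rnase2a by more than 4 approximate standard errors in each genotype, and Ear2 last, at 27.6 in NIK KO and 19.8 in WT. The gap between these last genes was 1.27 ± 0.70 in NIK KO and 2.34 ± 0.70 in WT. The approximate standard errors of these gaps come from the fold change errors alone, taken as independent between genes. They leave out errors of transcript length and read assignment, so they do not settle the order.

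**Figure D1:**
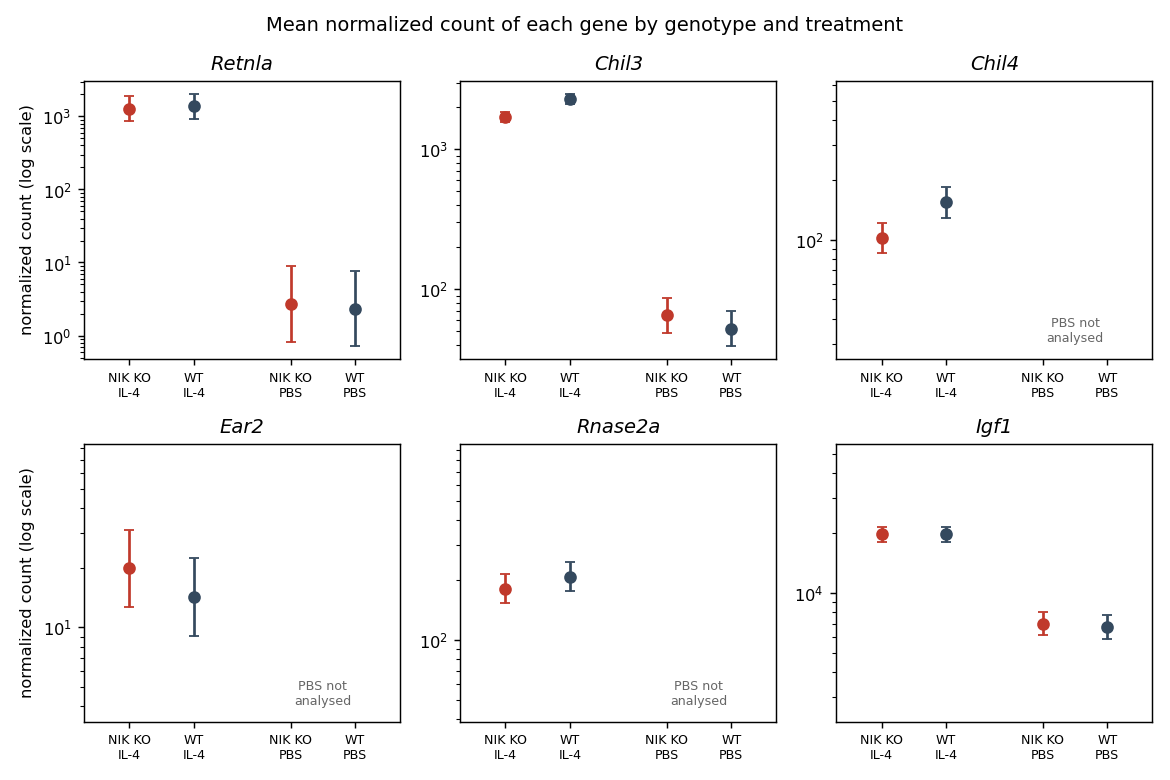
Mean normalized count (log axis, a separate scale for each gene) of the 6 secreted effectors in NIK KO and WT macrophages with IL-4 and with PBS; points are group means over 2 mice recovered from the deposited tables, bars are ± 1 approximate standard error of a group mean, and the 2 treatments come from tables normalized separately. Retnla, Chil3 and Igf1 stand higher with IL-4 than with PBS in both genotypes, and in these 3 genes the treatments lie further apart than the genotypes.

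With PBS, Retnla and Chil3 were far lower, and Igf1 less so. Retnla stood at 2.67 in NIK KO and 2.34 in WT, close to the lowest base mean in the PBS table (2.14). Chil3 was at 64.9 in NIK KO and 52.3 in WT, and Igf1 at 6996 in NIK KO and 6729 in WT. Igf1 was thus already abundant in cells without IL-4, while Retnla was barely detected there.

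To set IL-4 beside PBS, the tables were scaled to the same median ratio over genes of base mean 100 or more in both, since each was normalized separately. No test of IL-4 against PBS can be made from them. On that scale Retnla with IL-4 was 394-fold above PBS in NIK KO and 489-fold in WT (log2 ratios of 8.62 and 8.93, with an approximate standard error of 1.81). Chil3 was 21.6-fold above in NIK KO and 36.2-fold in WT (4.44 and 5.18, ± 0.44). Igf1 was 2.33-fold above in NIK KO and 2.43-fold in WT (1.22 and 1.28, ± 0.23). Without scaling between the tables the Igf1 log2 ratios are higher, 1.49 in NIK KO and 1.55 in WT. Most of the Retnla error is that of the PBS table, where its standard error was 2.43, against 0.80 with IL-4.

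All 3 genes were at least 2-fold higher with IL-4 in both genotypes, against 3.05% of the 13384 genes in both tables, and 2 of 3, Retnla and Chil3, were at least 4-fold higher, against 0.792%. Ranked among all 13384 genes, Retnla came 3rd in NIK KO and 1st in WT. Chil3 came 29th in NIK KO and 11th in WT, and Igf1 573rd in NIK KO and 586th in WT. A filter on the IL-4 level itself, base mean 100 or more, left 9508 genes and favours genes high with IL-4. Among those, Retnla came 2nd in NIK KO and 1st in WT, and Chil3 19th in NIK KO and 8th in WT. Igf1 came 227th in NIK KO and 197th in WT. Within that filter Arg1, the arginase of alternative activation, was the gene nearest Retnla in WT. It was at 8.41 in NIK KO and 7.79 in WT on the log2 scale. Its gap to Retnla was smaller in each genotype than the approximate standard error of Retnla, 1.81.

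Of the other IL-4 target genes on the list, 28 of 29 had a higher level with IL-4 in WT, with a median log2 ratio of 2.89, beside -0.01 over all genes. Retnla and Chil3 were above the list's median and Igf1 was under it. The list, like the members, was chosen for its known link to IL-4 and with earlier results of these data known. A high share was therefore set by the choice, and the median over all genes was largely set by the scaling. Mrc1, the mannose receptor CD206, had log2 ratios of 3.85 in NIK KO and 3.82 in WT. Cdh1, which encodes E-cadherin, had 6.55 in NIK KO and 5.95 in WT.

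**Figure D2:**
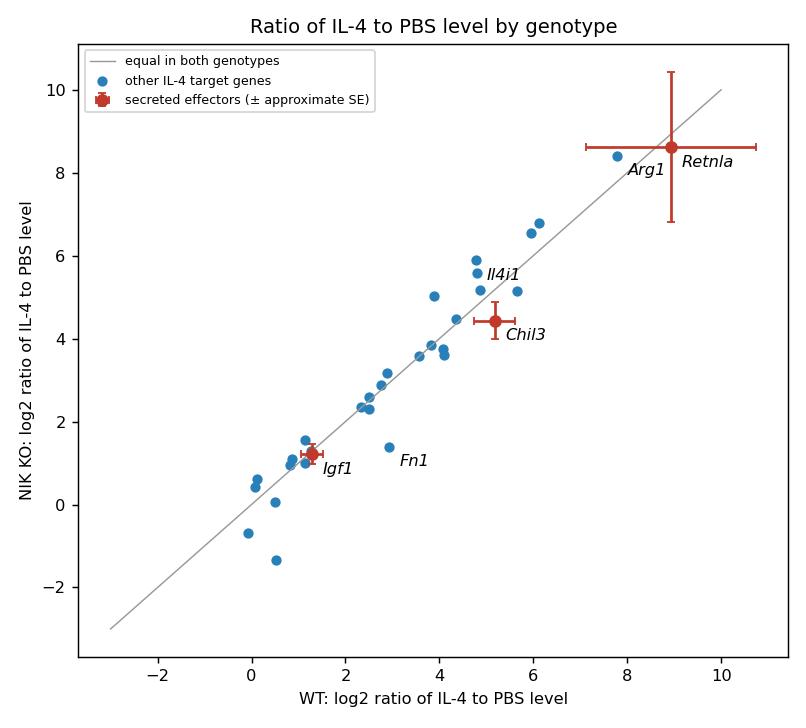
Log2 ratio of IL-4 to PBS level in NIK KO (vertical axis) against the same in WT (horizontal axis) for Retnla, Chil3 and Igf1 (red, ± 1 approximate standard error) and the other IL-4 target genes (blue); the line marks equal ratios. Retnla lies at the top right (8.62 in NIK KO, 8.93 in WT), Chil3 below the line (4.44 and 5.18) and Igf1 low on it (1.22 and 1.28).

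No gene of the 6 was called different between NIK KO and WT with IL-4. By DESeq2, 0 of 6 had an adjusted p under 0.05, where 0.125% of 13642 genes did. At an unadjusted p under 0.05 stood 1 of 6, Chil3, where 2.95% of 14193 genes did. Of the 6 values in the authors' deposited table, 5 were lower in NIK KO and 1 was higher, with a median of -0.16. Over all genes 51.1% were lower and the median was -0.01. Igf1, among the lower ones at -0.0039, was at 0.0025 after centring on the median of all genes, which left 4 lower and 2 higher. After the median of genes of like transcript length was subtracted, 4 were lower and 2 higher, with a median of -0.08.

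Chil3 came nearest to a difference. In the authors' deposited table its log2 fold change with IL-4 was -0.43 ± 0.18 (standard error, 2 mice against 2), a level in NIK KO of 0.741 of that in WT with a 95% interval from 0.584 to 0.941. It was 157th of 14193 genes by the size of its statistic (DESeq2 adjusted p = 1.00). Chil4 was at -0.60 ± 0.37 in the authors' deposited table, with a wider interval from 0.401 to 1.08 of the WT level (adjusted p = 1.00 by DESeq2). Since reads can be assigned to either copy, the pair was also summed. The sum was 1801 in NIK KO and 2448 in WT, a log2 ratio of -0.44, and Chil4 made up 5.66% of it in NIK KO and 6.32% in WT. Chil3 and Chil4 were both lower in NIK KO. Gm6522, which holds 26.0% of the 31-base words of Chil3 and 16.4% of those of Chil4, was not part of the sum. The part of read assignment in these values was not tested.

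Retnla was not called, and its interval is wide. The authors' deposited table puts its log2 fold change with IL-4 at -0.12 ± 0.80 (adjusted p = 1.00 by DESeq2). The 95% interval runs from 0.310 to 2.73 of the WT level, so a change of more than 2-fold either way lies within it. After the median of genes of like transcript length was subtracted, its value was 0.0141, with the sign turned. The standard error of Retnla was out of proportion to its level: none of the 500 genes nearest to it in base mean had one as high (median 0.19, highest 0.67). Among the 3581 genes whose base mean with IL-4 reached 1000, Retnla ranked 10th by standard error. Values per mouse would be needed to say which libraries differ.

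The other members had standard errors like those of their neighbours in level. For Chil3, 262 of the 500 nearest genes had one as high, for Chil4 370, for Ear2 331, for Igf1 100 and for Rnase2a 97. Most genes of the table lie on a narrow band of standard error against level, and Retnla lies off it.

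**Figure D3:**
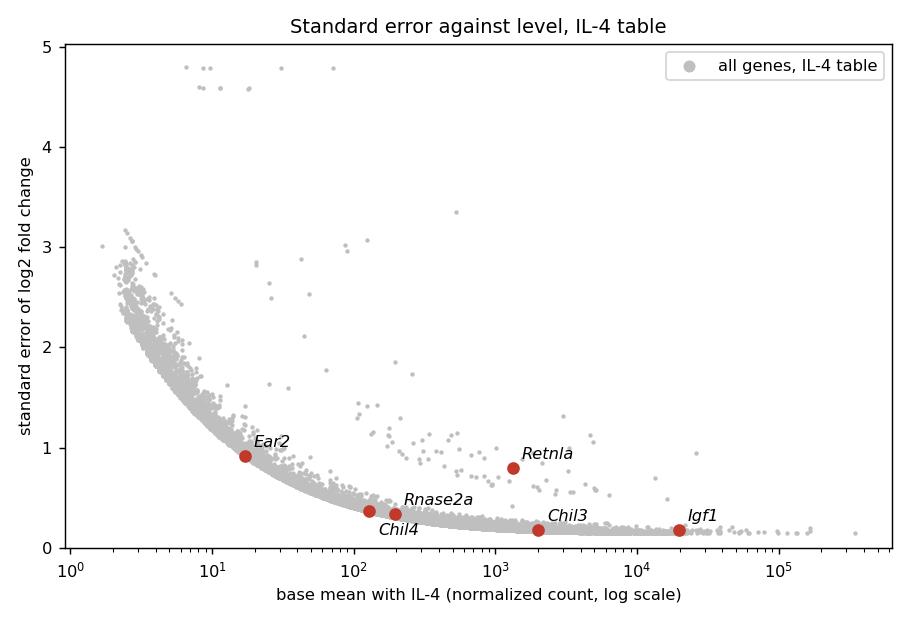
Standard error of the deposited log2 fold change (vertical axis) against base mean (horizontal axis, log scale) for every gene of the IL-4 table (grey), with the 6 secreted effectors in red. Retnla lies far above the band at its level (0.80, where the median of its 500 nearest genes is 0.19), and the other members lie on the band.

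Igf1 is the member held most closely with IL-4, beside Chil3. Its log2 fold change was -0.00 ± 0.18 in the authors' deposited table, with an interval from 0.785 to 1.27 of the WT level (adjusted p = 1.00 by DESeq2). Rnase2a was at -0.19 ± 0.34 in the authors' deposited table, its adjusted p by DESeq2 was 1.00, and its interval ran from -0.87 to 0.48 on the log2 scale. Ear2 was at 0.48 ± 0.92 in the authors' deposited table (adjusted p = 1.00 by DESeq2), with an interval from 0.398 to 4.86 at a base mean of 17.0.

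With PBS none of the 3 genes tested was called either (0 of 3 by DESeq2, where 0.0366% of 13676 genes were), and 0 of 3 had an unadjusted p under 0.05, where 1.24% did. Lower in NIK KO were 0 of 3, where 51.7% of all genes were. In the authors' deposited table the log2 fold changes were 0.31 ± 0.60 for Chil3, 0.06 ± 0.28 for Igf1 and 0.19 ± 2.43 for Retnla (DESeq2 adjusted p = 1.00 each). The interval for Igf1 ran from 0.710 to 1.52 of the WT level and that for Chil3 from 0.551 to 2.80. For Retnla the interval spans 0.0419 to 31.2, so with PBS it sets no useful limit.

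Whether the genotype difference itself differed with IL-4 was tested by subtracting the PBS fold change, with a two-sided z test with Benjamini-Hochberg adjustment over 13384 genes. None of the 3 genes passed (0 of 3, where 0.0149% did), and 0 of 3 had an unadjusted p under 0.05, where 0.867% did. The difference, IL-4 minus PBS, was -0.74 ± 0.62 for Chil3 (95% interval -1.97 to 0.48, adjusted p = 1.00 by the z test on DESeq2 values). It was -0.06 ± 0.33 for Igf1, with an interval from -0.71 to 0.59. For Retnla it was -0.31 ± 2.56.

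**Figure D4:**
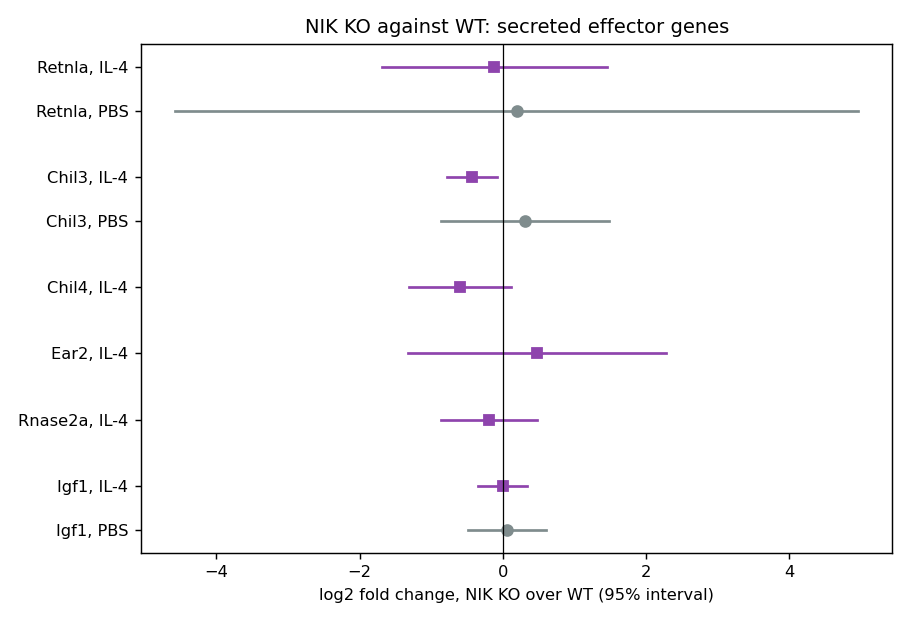
Log2 fold change, NIK KO over WT, of each secreted effector with IL-4 (purple squares) and with PBS (grey circles) from the deposited tables; lines are 95% intervals from the deposited standard errors. The interval of Chil3 with IL-4 (-0.78 to -0.09) leaves out 0 before adjustment for the number of genes tested, and the others include it.

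The receptor and signalling genes upstream of these effectors were not called in either treatment, 0 of 15 with IL-4 and 0 of 15 with PBS. Over all genes 0.125% were called with IL-4 and 0.0366% with PBS, so a list of this size would seldom hold a call. With IL-4, 12 of 15 were higher in NIK KO (48.9% over all genes) with a median of 0.09. With PBS 8 of 15 were higher (48.3% over all genes) with a median of 0.02. Il4ra, the receptor's ligand-binding chain, was at 0.29 ± 0.17 with IL-4 and 0.09 ± 0.24 with PBS in the authors' deposited tables, and Stat6 at 0.19 ± 0.16 and -0.12 ± 0.25. Parp14, a cofactor of STAT6, had the largest statistic on the list in each table. It was at 0.43 ± 0.17 with IL-4 (DESeq2 adjusted p = 1.00) and 0.36 ± 0.24 with PBS in the authors' deposited tables.

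Genes that regulate the promoters of the effectors were likewise not called, 0 of 13 in each table. Over all genes 0.125% were called with IL-4 and 0.0366% with PBS. The medians of the 13 were 0.04 with IL-4 and -0.09 with PBS. Cebpd, a C/EBP factor, had the largest statistic with IL-4, at -0.50 ± 0.36, and Pparg, a nuclear receptor of the M2 program, with PBS, at 0.31 ± 0.35, in the authors' deposited tables. Cebpb, which encodes the C/EBP factor best known at M2 promoters, was at -0.27 ± 0.58 with IL-4 and -0.18 ± 0.94 with PBS in the authors' deposited tables. Its base means were 2679 and 3744.

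Other genes that IL-4 is known to turn on were not called between genotypes either. With IL-4, 0 of 30 were called (0.125% over all genes). In NIK KO 16 were higher (48.9% over all genes) and 14 lower, and the median was 0.02. With PBS 0 of 29 were called (0.0366% over all genes). There 9 were higher (48.3% over all genes) and 20 lower, and the median was -0.12. Arg1 was at -0.20 ± 0.15 and Mrc1 at 0.13 ± 0.18 with IL-4 in the authors' deposited table. The largest statistics were those of Fn1 (fibronectin) with IL-4, at -0.99 ± 0.40 and 173 in NIK KO against 345 in WT, and Il4i1, a secreted amino acid oxidase, with PBS, at -1.43 ± 0.56 and 41.4 in NIK KO against 112 in WT (authors' deposited tables, DESeq2 adjusted p = 1.00 each).

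Relatives of the effectors were measured too. Of the resistin family Retnla alone was measured. Of the chitinase family, 3 further members were measured with IL-4 and 2 with PBS. None of them was called, where 0.125% of all genes were with IL-4 and 0.0366% with PBS. Chid1 and Ctbs, lysosomal glycosidase relatives, were at -0.01 ± 0.22 and 0.11 ± 0.25 with IL-4 in the authors' deposited table; Chil1 was at -1.70 ± 2.52 at a base mean of 2.52. Of the RNase A family and its companions, 0 of 10 were called with IL-4 and 0 of 7 with PBS, beside the same shares over all genes. Their medians were -0.08 with IL-4 and 0.08 with PBS. Rnase2b, a relative of Rnase2a, had the largest statistic in each table (-2.94 ± 2.04 with IL-4 and -4.56 ± 2.78 with PBS in the authors' deposited tables) at base means of 4.46 and 2.31.

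Among the genes of the IGF axis, the call was not Igf1. With IL-4, 1 of 12 was called (0.125% over all genes), and with PBS 0 of 12 (0.0366% over all genes). Pappa2, which encodes a protease that frees IGF1 from its binding proteins, fell in NIK KO with IL-4, at 7.46 in NIK KO against 82.3 in WT (-3.46 ± 0.75, DESeq2 adjusted p = 0.00504, authors' deposited table). Under the heavier tails of a t distribution (2 degrees of freedom) neither Pappa2 nor any other gene of the table passed. With PBS Pappa2 was at 18.8 in NIK KO and 11.7 in WT (0.68 ± 0.99 in the authors' deposited table). The change between treatments, -4.15 ± 1.24, did not pass by the z test (adjusted p = 1.00). Igf2 stood at 33.6 in NIK KO against 115 in WT with IL-4 (-1.77 ± 0.48, DESeq2 adjusted p = 0.123, authors' deposited table). The receptors Igf1r and Igf2r were at 0.06 ± 0.55 and 0.29 ± 0.17, and Igfbp4, a binding protein gene, at 0.17 ± 0.18 with IL-4 in the authors' deposited table. The list's medians were -0.01 with IL-4 and 0.07 with PBS. With PBS Igfbp5 had the largest statistic (-2.88 ± 2.64 in the authors' deposited table), at a base mean of 2.37.

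By distance over 3 values (the NIK KO fold change with IL-4, that with PBS and the WT ratio of IL-4 to PBS), the genes most like Igf1 among 9147 were Ang (0.05), Rel (0.06) and Plekha3 (0.10). Ang encodes angiogenin, a secreted ribonuclease of the family of Ear2 and Rnase2a, and its WT log2 ratio was 1.25 beside 1.28 for Igf1. Rel encodes the NF-κB subunit c-Rel. The other members were under the base mean of 100 with PBS that this comparison required, or not measured there.

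**Figure D5:**
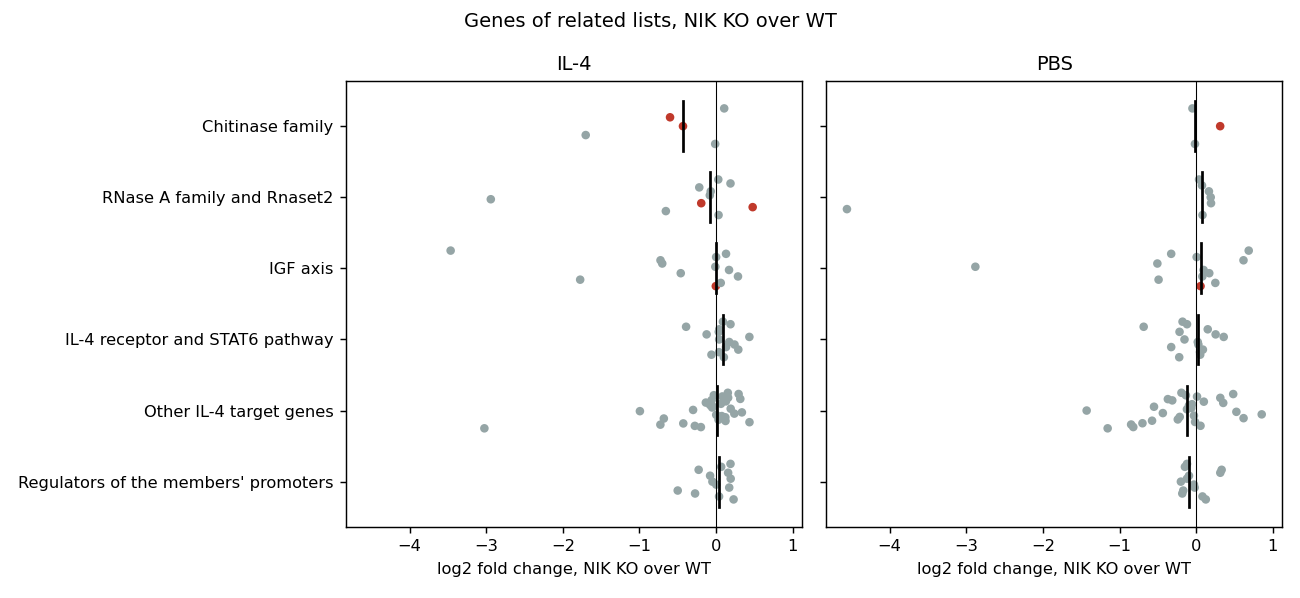
Log2 fold change, NIK KO over WT, of each measured gene of 6 related lists with IL-4 (left) and PBS (right); red points are the secreted effectors, grey points other genes, and black bars list medians. Medians lie between -0.43 (chitinase family, IL-4, 5 genes) and 0.09 (IL-4 receptor and STAT6 pathway, IL-4, 15 genes), and the lone call is Pappa2 at -3.46 in the IGF axis with IL-4.

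Markers of other cell types were summed beside these values. Macrophage markers summed to 509862 in NIK KO and 533012 in WT with IL-4, and to 671929 in NIK KO and 659406 in WT with PBS. Most of each sum is Lyz2, which encodes lysozyme, at 318214 in NIK KO and 370074 in WT with IL-4. Of the 12 macrophage markers 9 were higher in NIK KO with IL-4 (48.9% over all genes), with a median of 0.09. Adgre1 (F4/80) had the largest statistic, at 0.54 ± 0.18 in the authors' deposited table (adjusted p = 0.672 by DESeq2). Fibroblasts also make Igf1. Fibroblast markers were lower in NIK KO with IL-4 in 9 of 10 genes (51.1% over all genes), with sums of 306 in NIK KO and 725 in WT. Of these 10, Col3a1 was called (-2.34 ± 0.53, DESeq2 adjusted p = 0.0107, authors' deposited table), where 0.125% of all genes were. With PBS, where 9 were measured, the sums were 175 in NIK KO and 208 in WT. Igf1 was at -0.00 ± 0.18 beside them in the authors' deposited table. Their part in the values of Pappa2 and Igf2, which were also lower in NIK KO with IL-4, was not tested.

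The eosinophil-associated ribonucleases, here Ear2 and Rnase2a, are named after eosinophils, whose markers were summed too. Of 8 eosinophil markers, Ccr3 and Alox15 were measured, with sums of 76.0 in NIK KO and 65.7 in WT with IL-4 and 66.8 in NIK KO and 39.0 in WT with PBS. They lay on opposite sides: with IL-4 Ccr3 was at 74.5 in NIK KO and 53.4 in WT, and Alox15, which is also on the list of IL-4 target genes, at 1.52 in NIK KO and 12.3 in WT. The other 6, Prg2 and Epx among them, were not analysed here. Neutrophils make Chil3. Neutrophil markers, 7 of 10 measured with IL-4 and 8 with PBS, summed to 875 in NIK KO and 1064 in WT with IL-4, and to 690 in NIK KO and 981 in WT with PBS. Most of each sum is Mmp8, a neutrophil collagenase, at 662 in NIK KO and 773 in WT with IL-4 (-0.22 ± 0.21 in the authors' deposited table) and at 485 in NIK KO and 750 in WT with PBS. Of the 7 measured with IL-4, 5 were lower in NIK KO (51.1% over all genes), with a median of -0.26. Their part in the Chil3 value was not tested. Erythroid markers summed to 234 in NIK KO and 460 in WT with IL-4 and to 139 in NIK KO and 119 in WT with PBS. Markers of alveolar macrophages, which make Chil3 and Ear2 in the lung, were measured for 4 of 8 genes. With IL-4 they summed to 2959 in NIK KO and 2306 in WT, largely Marco (0.48 ± 0.95 in the authors' deposited table). Of these 4, 2 were higher in NIK KO (48.9% over all genes) and 2 lower, with a median of -0.16. With PBS 4 of 4 were higher (48.3% over all genes), with sums of 4087 in NIK KO and 2418 in WT. Dendritic cell markers, 6 of 7 measured with IL-4, summed to 113 in NIK KO and 129 in WT. B cell markers, 2 of 5 measured with IL-4, summed to 18.0 in NIK KO and 44.5 in WT. For T cells 1 of 6 markers was measured with IL-4, Lck, at 9.88 in NIK KO and 16.9 in WT (-0.78 ± 1.06). For mast cells and basophils 1 of 6 was measured with IL-4, Kit, at 19.4 in NIK KO and 4.29 in WT (2.18 ± 1.11). Both are low counts in the authors' deposited table, and neither was called.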

How the data were processed

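RNA of 8 libraries, 4 groups of 2 mice, was compared between genotypes within each treatment. Per the submitters' processing notes, Salmon 1.4.0, DESeq2 1.32.0 and build GRCm39 were used; no source used here gives their roles, the annotation or a filter. The authors deposited, per the file headers, for each gene, a base mean (a signal: counts over size factors, averaged over 4 libraries), a log2 fold change with its standard error, a Wald score, and a p-value with its adjusted p-value. Replicates are separate mice, and cells of each of the 4 mice received both treatments. The members and lists were chosen with earlier results of these data known. Named genes are the members, list genes called at adjusted p under 0.05, the largest statistic of each pathway list in each table, and the nearest 3 genes by distance; further list genes were named for their roles, after their values were seen.

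Group means were solved from base mean and fold change for groups of equal size. The approximate standard error of a group mean is the deposited one divided by the root of 2. Tables were scaled by 0.27 (log2) to compare treatments. Intervals are 95% normal ones. Base means summed to 1.66e+07 with IL-4 and 1.42e+07 with PBS; the depth per library is unknown. Sequence sharing and transcript length came from GENCODE M21 (GRCm38), which is not the authors' build, and promoters from RefSeq (GRCm38.p6), matched by symbol for 6 of 6 genes. Python 3.11.15, numpy 2.4.6, pandas 2.3.3, scipy 1.17.1, Biopython 1.88 and matplotlib 3.10.9 were used. The code of the tests was run on fold changes simulated from the deposited standard errors. That run cannot show whether these errors hold with 2 mice per group, or are independent between treatments. Alternatives were other reference distributions, filters, centring, thresholds, error correlations and scalings.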

Additional observations from a re-analysis of the deposited data

How the results depend on the processing

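No member was called under any alternative run: a t distribution with 2 degrees of freedom, genes of base mean 100 or more, no filter, centring, subtraction of the length trend, a threshold of 0.1, or an error correlation of 0.5 in the test between treatments. With the t distribution 0 genes of either table passed, so that setting says nothing of the members. Among genes of base mean 100 or more, 9 passed with IL-4 in place of 17. With no filter, centring or the length trend subtracted, 15 to 17 genes passed with IL-4 and 5 to 6 with PBS. No count over all genes is given here for the threshold of 0.1. So few genes passed that 0 members called is near the share over all genes. With IL-4 the value of Retnla was 0.0141 in place of -0.12 when the median of genes of like transcript length was subtracted, and that of Igf1 was 0.0025 in place of -0.0039 when centred on the median of all genes; both lie far inside their errors. Without scaling between the tables the Igf1 log2 ratio of IL-4 to PBS was 1.49 in NIK KO and 1.55 in WT. These stand in place of 1.22 and 1.28, a shift fixed by the scale itself. The other 68 alternative values kept their sign and their side of the threshold, or moved by less than their error. Only centring, the length trend and the scaling between tables can move a fold change or a ratio. The other settings change p-values, the threshold or the set of genes, so a sign kept under them shows nothing. Genes under a base mean of 100 (Ear2 with IL-4, Retnla and Chil3 with PBS) give no value under that filter. The tables hold no values per library, so leaving out a mouse could not be run. No paired analysis was possible because the tables hold no values per mouse, although the same mice received both treatments.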

Other observations

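Retnla was not alone in its wide error. The 12 genes with the highest standard errors among those whose base mean with IL-4 reached 1000 were looked up after the Retnla value was seen, and they include Retnla. Saa3, an acute phase protein, had the highest of them with IL-4, and 1.27 with PBS in the authors' deposited tables. Acod1, the itaconate-making enzyme, had 1.13 with IL-4 and 1.06 with PBS, and Gpr84, a fatty acid receptor, 1.00 and 1.07, in the authors' deposited tables. Clec4e, the receptor Mincle, had 1.00 with IL-4 and 0.88 with PBS, Marco, a scavenger receptor, 0.95 and 0.94, Sod2 0.76 and 0.83, and the chemokine gene Ccl2 0.70 and 1.04 in the authors' deposited tables. Marcksl1 had 0.85 with IL-4 and 0.88 with PBS, the mitochondrial gene mt-Atp6 1.06 and 0.87, and Gm28437 0.95 and 0.87 in the authors' deposited tables. Gm28438 went the other way, with a wide error in the IL-4 table alone: 0.88 with IL-4 and 0.29 with PBS in the authors' deposited tables. The fold changes of these genes with IL-4, NIK KO over WT, were smaller than their standard errors: Marcksl1 was at 0.11, mt-Atp6 at -0.24, Gm28437 at -0.09, Gm28438 at -0.38, Saa3 at 0.01, Acod1 at 0.16, Gpr84 at 0.00, Clec4e at -0.09, Sod2 at -0.10, Ccl2 at -0.12 and Marco at 0.48 in the authors' deposited table. Retnla, at a base mean of 2.51 with PBS, could not be read in this way without IL-4. Whether the same mice carry these errors was not tested, since the tables hold no values per mouse.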
